A study of Homo sapiens with 16 samples.

Results

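The same 250 human genomic inserts were read from an episomal and from a lentiviral vector in K562 cells, a human erythroleukaemia line of wild-type genotype. The inserts are all of the long library: each has 350 positions and carries 2 barcodes, and none was left out for its signal. Of the 16 samples of the series 8 were used, namely 2 TSS-MPRA samples and 2 DNA sequencing samples for EpiLong, the episomal library, and as many for LentiLong, the lentiviral library. All were grown in the same medium with serum, and the labels give no treatment, dose or time. The question was which inserts are transcribed differently, and from which bases, when the vector changes. The labels do not say whether the 2 replicates of a vector were separate cultures, so each p-value speaks only of the spread between the samples at hand, which may be technical, and a difference between vectors cannot be told apart from one between library preparations. The tables hold reads from the inserts alone, so the markers of the cell line could not be read from them.

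In TSS-MPRA many barcoded inserts are transcribed in parallel from a vector, and reads from the 5 prime end of capped RNA name both the insert and the base where transcription began. An episomal vector stays outside the chromosomes, whereas a lentiviral vector integrates into them, at sites that differ from cell to cell. RNA polymerase II usually starts on a purine that follows a pyrimidine, the core of the initiator element. Promoters of CpG islands, which are rich in GC and often hold GC boxes bound by Sp1 and its relatives, tend to start at many bases, and promoters with a TATA box at few.

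GC content ran from 33.4% to 81.7% over the inserts. An annotated transcript start (GENCODE version 44, hg38) lay within 500 bp of the middle on the same strand for 101 inserts, on the other strand only for 53, and on neither for 96. The middle of the named genomic region is position 203 of the insert, and positions below are given in bp from it. The last position with a start in any sample was 314, which is 111 bp downstream of the middle. By the annotation at the middle 70 inserts lay in a UTR, 19 in another exon, 34 in an intron, 75 antisense to a transcript and 52 between genes. Below, an insert near a start on its own strand has the name of that gene, "opposite" marks a start on the other strand only, and "antisense intron" an insert that runs against an intron.

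The following stretches of hg38 hold the 2 main start bases, the most used base in each vector, of inserts in which these lay over 10 bp apart. They are shown 5 prime to 3 prime on the strand of the insert, in lower case, with each main start and the base before it in capitals. The STXBP5-AS1 stretch is chr6:146887464-146887592, plus strand, the RUNX1 stretch chr21:34908365-34908488, minus strand, the ATG16L1 stretch chr2:233221800-233221882, minus strand, the TNIK stretch chr3:171447524-171447588, plus strand, and the TRAPPC3 stretch chr1:36151081-36151159, plus strand. In each of these stretches the upstream pair is the lentiviral and the downstream pair the episomal main start. The stretches shown do not stand for all 26 such inserts, since in 9 of them the episomal main start was the upstream one. The episomal main start of TRAPPC3 antisense intron lies at 111 bp, the last position with a start in any sample. Those of STXBP5-AS1 antisense intron and RUNX1 intron, at 107 and 102 bp, lie near it.
STXBP5-AS1 antisense intron: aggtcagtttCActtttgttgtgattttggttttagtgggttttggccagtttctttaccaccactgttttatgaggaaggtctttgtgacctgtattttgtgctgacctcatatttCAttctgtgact
RUNX1 intron: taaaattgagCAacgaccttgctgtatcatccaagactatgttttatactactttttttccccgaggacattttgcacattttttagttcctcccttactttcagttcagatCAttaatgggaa
ATG16L1 antisense intron: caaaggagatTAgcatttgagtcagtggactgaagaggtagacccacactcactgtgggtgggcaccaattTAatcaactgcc
TNIK antisense intron: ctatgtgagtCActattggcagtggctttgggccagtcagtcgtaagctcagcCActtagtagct
TRAPPC3 antisense intron: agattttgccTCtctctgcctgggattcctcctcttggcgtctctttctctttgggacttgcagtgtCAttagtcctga

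The next stretches are taken around the main start of 3 of the inserts with the most RNA per DNA from the lentiviral vector, again with the start and the base before it in capitals. The LINC-PINT stretch is chr7:131072283-131072343, plus strand, the chromosome 20 stretch chr20:2525741-2525801, minus strand, and the LONP1 stretch chr19:5718839-5718899, plus strand. The first 2 are copies of related sequence: a local alignment of the whole inserts paired 308 bases, of which 262 (85.1%) were identical.
LINC-PINT antisense intron: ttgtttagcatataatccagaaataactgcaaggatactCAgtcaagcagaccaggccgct
intergenic chr20 2525778: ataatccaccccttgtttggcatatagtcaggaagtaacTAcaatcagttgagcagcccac
LONP1 antisense intron: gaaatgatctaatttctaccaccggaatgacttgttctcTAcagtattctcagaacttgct

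The last stretches are from 4 GC-rich inserts at annotated starts, each with less RNA per DNA in the lentiviral than in the episomal vector. Stretches before their middle that overlap no annotated UTR are shown with GC boxes (GGGCGG or its complement) in capitals. The ZXDC stretch is chr3:126475892-126476011, minus strand, the PSMG4 stretch chr6:3258777-3258896, plus strand, the RAB12 stretch chr18:8609317-8609436, plus strand, and the RNF32 stretch chr7:156640554-156640673, plus strand. A GC box occurred on either strand in 131 of the 250 inserts (52.4%).
ZXDC: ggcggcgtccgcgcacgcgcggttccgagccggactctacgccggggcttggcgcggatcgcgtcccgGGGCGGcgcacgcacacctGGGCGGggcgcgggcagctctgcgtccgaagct
PSMG4: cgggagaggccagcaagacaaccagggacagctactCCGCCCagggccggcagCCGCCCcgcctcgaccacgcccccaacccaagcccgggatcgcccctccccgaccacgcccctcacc
RAB12: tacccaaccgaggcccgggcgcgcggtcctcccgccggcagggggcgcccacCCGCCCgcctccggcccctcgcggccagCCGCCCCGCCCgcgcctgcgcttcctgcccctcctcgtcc
RNF32: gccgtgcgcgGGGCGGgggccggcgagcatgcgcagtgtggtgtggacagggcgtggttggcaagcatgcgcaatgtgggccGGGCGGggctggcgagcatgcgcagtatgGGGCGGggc

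RNA totals were 26720416 and 25766991 reads in the episomal and 14409521 and 16877640 in the lentiviral samples, and DNA totals ran from 6104945 to 8525746. A median insert had 17020 to 29839 RNA reads and 15408 to 22566 DNA reads per sample. Replicates ranked the inserts alike, with Spearman correlations across inserts between 0.99 and 0.999, but differed by more than counting noise (chi-square per degree of freedom 28.1 to 1621). A self-test used counts simulated from the means of these libraries, with a single dispersion for all inserts. Changes of each size were given to 30 inserts, as many up as down. It recovered 76.7% of changes of 1 log2 unit in RNA per DNA and all of 2 units, and 7.02% of its calls were false. The uneven spread of the real replicates and the many differences between the vectors were not simulated, so these rates may not hold for the data. The labels name no molecular identifiers for the amplified reads, so read numbers may not be numbers of molecules.

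Starts were more concentrated in the lentiviral vector. The spread was measured as the effective number of start positions, 2 to the power of the Shannon entropy of the profile in bits, which is 1 when every read starts at the same base. Its median over the 235 inserts with at least 100 reads in each of the 4 samples was 28.2 and 29.4 positions in the episomal replicates, against 20.0 and 19.8 in the lentiviral ones. By limma with Benjamini-Hochberg adjustment over all inserts, 207 of 235 inserts (88.1%) had a narrower profile in the lentiviral vector and 4 (1.7%) a broader one, with a median difference of -0.55 on the log2 scale. The higher of the lentiviral replicates lay below the lower episomal one in 217 inserts, and the groups overlapped in 12. Positions with any start, summed over barcoded inserts, numbered 63131 and 67425 in the episomal samples and 36200 and 35907 in the lentiviral ones. Whether the number of RNA molecules differed and had a part in the narrowing was not tested. With reads thinned to equal numbers 208 inserts were narrower, but reads may not be molecules. Starts from -110 to 44 bp alone, held in the deposited core tables, left 172 of 224 inserts narrower and 3 broader, with a median of -0.40.

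**Figure D1:**
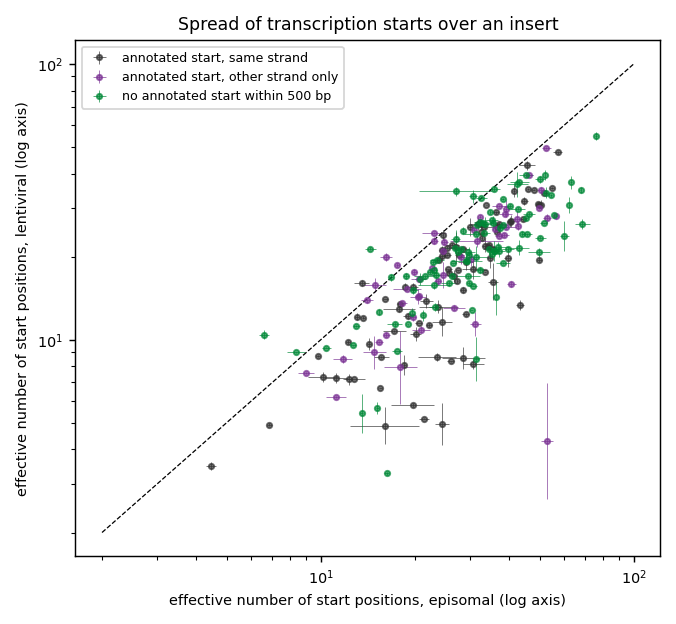
Effective number of start positions of 235 inserts in the episomal (x axis) and lentiviral (y axis) vector, both on log axes, as geometric means with bars that span the 2 replicates; the dashed line marks equal values and colours give the distance class to annotated starts. Most points lie below the line in all 3 classes.

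The narrowing was seen in every class of insert. Of the inserts at an annotated start on the same strand 84 of 90 were called narrower, of those with a start on the other strand only 41 of 50, and of those without a start 82 of 95. The median difference was -0.59, -0.51 and -0.55. Over 4 groups of about equal size by GC content, from low to high, it was -0.49, -0.53, -0.51 and -0.68. Of 4 equal groups by the mean level over all samples, the lowest had a median difference of -0.85 and the highest of -0.35. The 2 barcodes of an insert, which mark separate copies of the same sequence, could be compared in 226 inserts, and in 205 of them both gave a lower lentiviral value.

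The largest narrowing was found in the insert opposite NDUFV3, named for a subunit of respiratory complex I. It started from an effective 50.6 and 55.0 positions in the episomal samples and from 2.65 and 6.96 in the lentiviral ones, a difference of -3.62 ± 0.41 (SE; adjusted p = 0.00018, limma). The MYO1C antisense intron insert, against a gene of an unconventional myosin, fell from 16.6 and 16.0 to 3.31 and 3.24 positions. SLC39A3, a zinc transporter gene, gave 25.6 and 23.2 positions in the episomal and 5.90 and 4.16 in the lentiviral samples. In all 3 the replicates of a vector lay closer to each other than to the other vector.

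Among the 4 inserts with a broader lentiviral profile an intergenic insert of chromosome 20 (middle 62485523) stood first. It used an effective 6.37 and 6.82 positions in the episomal and 10.1 and 10.8 in the lentiviral samples, a difference of 0.66 ± 0.07 (SE; adjusted p = 0.00011, limma). The others were an insert in an intron of ENSG00000267922, the insert opposite ENSG00000250129, and MIR223HG, the host gene of a myeloid microRNA. They were named after their values were seen, since their number is small.

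The bases used also differed. Starts on a purine preceded by a pyrimidine made up a mean of 57.0% and 56.8% of the starts of an insert in the episomal samples and 64.5% and 64.7% in the lentiviral ones, while such steps hold 21.6% of the positions. Per insert, 175 of 235 (74.5%) had a higher share in the lentiviral vector and 8 (3.4%) a lower one by limma, with a median difference of 7.33 percentage points. This test was added after the start profiles had been seen. Both barcodes gave a higher lentiviral share in 190 of 226 inserts.

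The pair CA, with the start on the A, took most of the gain. It held 32.4% and 32.1% of the starts in the episomal and 37.8% and 38.1% in the lentiviral samples, against 6.09% of positions. TA was higher likewise, with 11.9% and 11.8% against 14.1% and 14.3%. The other pyrimidine and purine pairs, CG and TG, were nearly level: CG held 4.57% to 5.00% and TG 7.70% to 7.98%. Pairs with a pyrimidine at the start were lower in both lentiviral samples, for example CT with 4.24% and 4.27% against 2.85% and 2.91%. These are means over 235 inserts and carry no test of their own.

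Start positions differed too. Stretches were set at fixed positions, and the last, 73 to 111 bp downstream of the middle, held a mean of 17.7% and 15.6% of starts in the episomal samples and 12.5% in each lentiviral one. It also showed the widest gap in base use, with 50.01% and 49.20% of its starts on a pyrimidine and purine step against 60.3% and 62.2%. Around the middle, from -2 to 22 bp, the order of the shares was turned: 30.4% and 31.1% of starts fell there in the episomal samples and 34.1% and 33.9% in the lentiviral ones. In every stretch both lentiviral samples had the higher share of pyrimidine and purine steps.

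**Figure D2:**
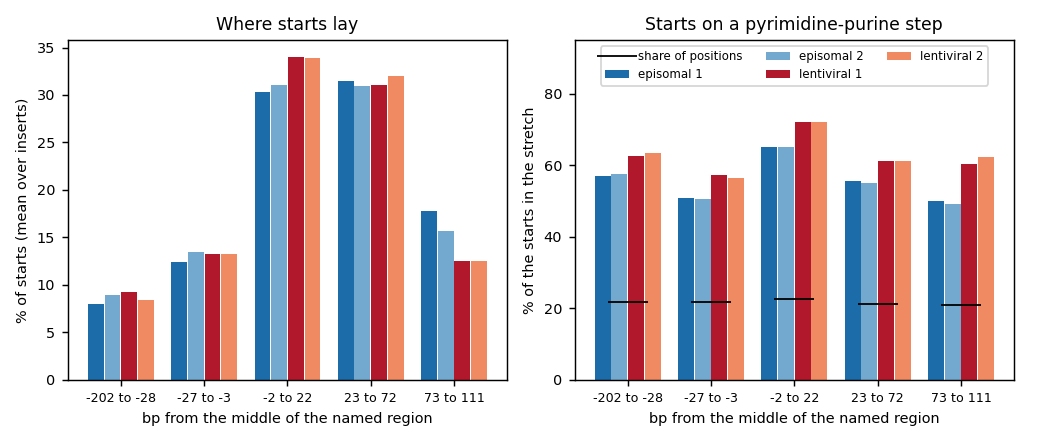
Left, mean percent of starts in 5 stretches of the insert, in bp from the middle of the named region, for each of the 4 samples; right, percent of the starts in each stretch that fell on a purine after a pyrimidine, with black dashes for the percent of positions that are such steps. The lentiviral bars are higher in every stretch on the right, and lower on the left from 73 to 111 bp.

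The mean start lay further upstream in the lentiviral vector for 86 of 235 inserts (36.6%) and further downstream for 38 (16.2%) by limma, with a median difference of -2.59 bp. That median was -1.29 bp without episomal replicate 1, -3.90 bp without episomal replicate 2 and 0.38 bp in the core tables. The counts differed by class, a difference that was not tested. Of the inserts with no annotated start near them 57 of 95 moved upstream and 4 downstream, with a median of -7.52 bp, whereas of those at an annotated start on the same strand 16 of 90 moved upstream and 27 downstream, with a median of 2.43 bp. In the deposited core tables, which hold only starts from -110 to 44 bp, the balance was turned over all inserts, with 53 upstream and 70 downstream of 224.

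The share of starts within 2 bp of the main start, the position with the most reads over all 4 samples, was higher in the lentiviral vector for 103 of 235 inserts (43.8%) and lower for 27 (11.5%). Its median over inserts was 26.0% and 26.5% in the episomal and 30.2% and 30.9% in the lentiviral samples. The number of calls was lower with fewer lentiviral samples: without lentiviral replicate 1 it was 74 in both directions together, and without replicate 2 it was 66, against 130 with all samples.

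Most inserts kept their main start. In 183 of the 235 inserts both replicates of each vector had the same most used base, and in 149 of these it was also the same between vectors. It lay 1 to 10 bp apart in 8 and over 10 bp apart in 26, with a median distance of 47 bp. In 17 of the 26 the episomal main start was the downstream one. The lentiviral main start lay within 2 bp of the middle in 8 of the 26, and the episomal one in 3. Over all 235 inserts the main start lay there in 31.5% and 32.3% of the episomal and 33.2% and 34.0% of the lentiviral profiles, nearly level between vectors. The middle is the centre of the genomic region by which an insert is named.

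The profiles as a whole were compared by the earth mover distance, the mean distance in bp by which starts must be moved to turn a profile into the other. Its median between vectors was 7.32 bp, against 3.0 bp between the episomal and 1.69 bp between the lentiviral replicates. In 211 of 235 inserts (89.8%) the distance between vectors was above both replicate distances. With starts from the core tables alone the median between vectors was 4.08 bp, beside 1.42 and 1.20 bp between replicates.

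The STXBP5-AS1 antisense intron insert (chr6:146887273-146887622, plus strand) shows such a change. Within 2 bp of its episomal main start, 107 bp downstream of the middle, lay 26.6% and 20.3% of starts in the episomal samples and 6.18% and 6.67% in the lentiviral ones. Within 2 bp of the lentiviral main start, on the middle itself, lay 14.9% and 18.4% in the episomal and 24.4% and 23.8% in the lentiviral samples. Both bases are the A of a CA pair in the sequence above. The mean start differed by -32.6 ± 2.09 bp (SE; adjusted p = 0.00106, limma), and by -0.46 bp in the core tables, which leave the downstream start out.

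The RUNX1 intron insert (chr21:34908330-34908679, minus strand) lies in a gene for a transcription factor of blood cell development. Within 2 bp of its start at 102 bp lay 47.8% and 30.4% of starts in the episomal samples and 8.77% and 8.31% in the lentiviral ones. Within 2 bp of its start on the middle lay 3.01% and 6.10% against 14.9% and 17.0%. At both of these starts both replicates of a vector lay on the same side of both of the other.

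HNRNPA3, a gene for a heterogeneous nuclear ribonucleoprotein, went the other way. Within 2 bp of its start at -34 bp lay 38.8% and 41.2% of starts in the episomal and 9.23% and 13.7% in the lentiviral samples, and within 2 bp of its start at 80 bp 12.3% and 9.59% against 40.6% and 30.7%. With 57.7 bp it had the largest distance between vectors, beside 4.69 and 13.0 bp between replicates, but only 271 and 498 lentiviral reads lay behind its profile. VPS28 opposite, named for a subunit of the ESCRT machinery that sorts membrane proteins, also had its main start further downstream in the lentiviral vector. It lay at 81 bp instead of 20 bp, on 757699 reads, but both starts were used in both vectors. Within 2 bp of 20 bp lay 47.0% and 47.5% of starts in the episomal and 29.7% and 28.9% in the lentiviral samples. Within 2 bp of 81 bp lay 22.1% and 18.4% against 37.3% and 36.6%.

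Other switched inserts named for their many reads were PRKCZ antisense intron, TRAPPC3 antisense intron, RRAGA and CHD1-DT opposite. PRKCZ codes for an atypical protein kinase C, TRAPPC3 for a part of a vesicle tethering complex and RRAGA for a GTPase that signals amino acid supply. In RRAGA the starts were nearly balanced: within 2 bp of -3 bp lay 16.5% and 18.1% in the episomal and 15.5% and 14.5% in the lentiviral samples, and within 2 bp of 19 bp 17.5% and 16.0% against 18.2% and 19.6%. Its mean start did not pass the test (3.91 bp; adjusted p = 0.054, limma).

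**Figure D3:**
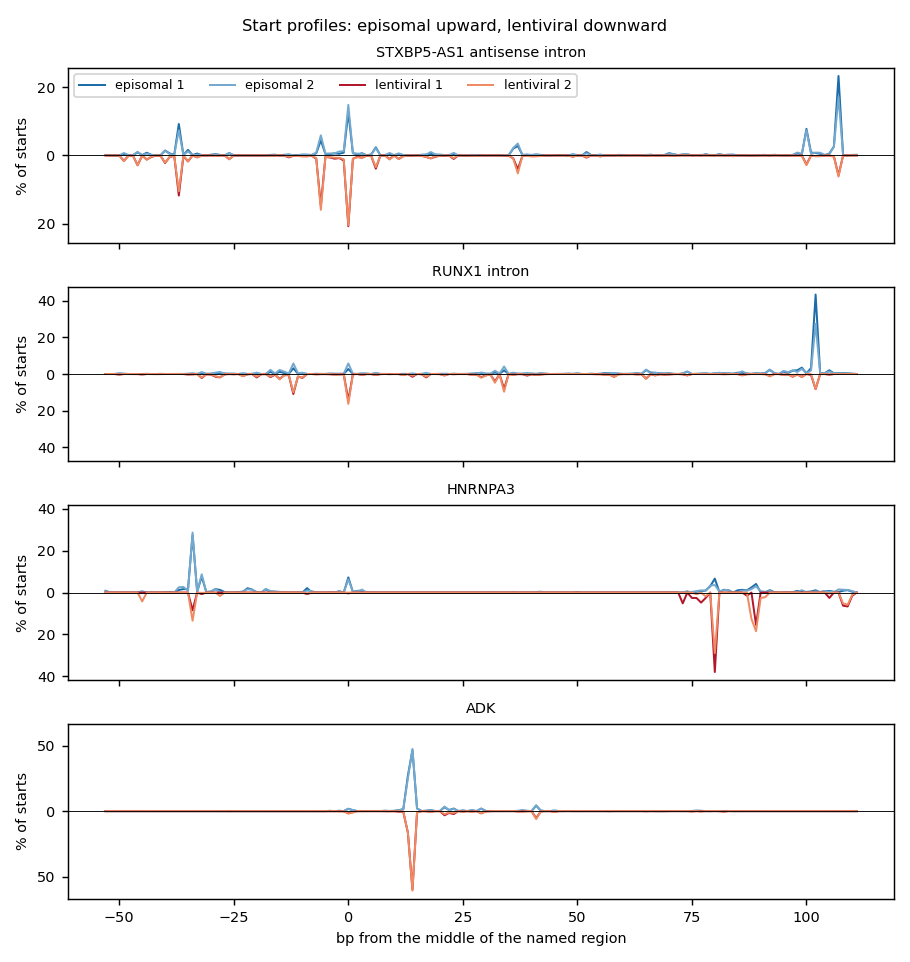
Percent of starts at each base from -53 to 111 bp around the middle in 3 inserts whose main start differed between vectors and in ADK, with the episomal replicates drawn upward and the lentiviral ones downward on the same scale. The peak at 107 bp in STXBP5-AS1 antisense intron and that at 102 bp in RUNX1 intron are short in both lentiviral samples, HNRNPA3 has its highest peak at -34 bp in the episomal and at 80 bp in the lentiviral samples, and ADK keeps its peak at 14 bp.

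The profiles that differed least by the earth mover distance belonged to ADK, TRIM21, WDR74 and ELF1, all at annotated starts. ADK, the gene of adenosine kinase, put 46.6% and 47.4% of its starts on 1 base in the episomal samples and 59.99% and 60.7% on the same base in the lentiviral ones, and the distance between vectors was 0.71 bp. TRIM21, a gene for a cytosolic antibody receptor, had a distance of 0.74 bp although it started from an effective 24.0 and 23.6 positions in the episomal and 19.7 and 19.3 in the lentiviral samples. ELF1, for an ETS family transcription factor, was 1 of 4 inserts with TATAAA 20 to 40 bases before the main start. These 4 had a median of 17.5 and 18.7 effective positions in the episomal and 9.63 and 10.04 in the lentiviral samples, and the 231 other inserts with a profile 28.3 and 29.8 against 20.2 and 19.9. The 4 did not move alike. ENSG00000250129 opposite, 1 of the broader inserts above, went from 15.5 and 16.9 to 19.3 and 20.6 effective positions (adjusted p = 0.0062, limma). DMD opposite, named for the dystrophin gene, fell from 19.5 and 22.4 to 10.6 and 11.2, ELF1 from 9.91 and 9.63 to 8.66 and 8.80, and TRAF3IP2-AS1, an antisense transcript, from 27.1 and 20.5 to 8.39 and 8.92. The TRAF3IP2-AS1 stretch (chr6:111483857-111483912, plus strand) is shown with TATAAA and the main start step in capitals.
TRAF3IP2-AS1: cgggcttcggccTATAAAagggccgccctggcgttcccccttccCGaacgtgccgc

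RNA per DNA compares the RNA of an insert with the number of DNA copies sequenced, and was tested as the interaction of vector and molecule in the edgeR quasi-likelihood model. Of 247 inserts 99 (40.1%) were higher in the lentiviral vector and 112 (45.3%) lower, with a median over all inserts of -0.21 on the log2 scale (0.06 when scaled by library totals alone, with 109 higher and 101 lower). The values given below for single samples are (RNA + 1) over (DNA + 1) relative to the median insert of the sample. In 232 inserts both replicates of a vector lay above both of the other, and across inserts the vectors' log2 values had a Spearman correlation of 0.65 (n = 247 inserts, which share libraries and depth). The 2 barcodes of an insert gave the same direction in 218 of 241 inserts.

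Large rises were found in inserts away from annotated promoters. Of all inserts without an annotated start near them, 60 of 96 were higher in the lentiviral vector and 19 lower. At an annotated start on the same strand 25 of 99 were higher and 63 lower, and with one on the other strand only 14 of 52 and 30. The median GC content of these classes was 50.1%, 64% and 63%, and the part of GC in these counts was not tested. The LINC-PINT antisense intron insert (chr7:131072099-131072448, plus strand), against a long non-coding RNA induced by p53, was the most active of all in both vectors. It gave 36.9 and 38.0 times the median insert in the episomal samples and 397 and 496 times in the lentiviral ones, a difference of 3.56 ± 0.14 (SE; adjusted p = 1.43e-07, edgeR). Its relative, the intergenic chromosome 20 insert (chr20:2525631-2525980, minus strand), gave 23.2 and 28.6 against 245 and 193. LONP1 antisense intron, against the gene of a mitochondrial protease, gave 15.2 and 15.4 against 124 and 127. Of these 3 only LINC-PINT was among the 8 largest rises, and the others were named for their level. All 3 rest on fewer DNA reads than the median insert, down to 838 in a lentiviral sample.

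ADD3 antisense intron, against a gene of the membrane skeleton, gave 0.70 and 0.90 in the episomal and 17.7 and 14.9 in the lentiviral samples, the largest rise with 4.32 ± 0.31 (SE; adjusted p = 1.63e-06, edgeR). Its DNA reads differed as well, with 3317 and 3153 against 251 and 388. STXBP5-AS1 antisense intron, whose starts are described above, gave 0.41 and 0.47 against 7.13 and 9.43, on 14245 to 24919 DNA reads. RUNX1 intron gave 0.08 and 0.10 against 0.78 and 0.80. The other rises of the 8 largest were LINC01033 antisense intron, ENSG00000254859 intron, an intergenic insert of chromosome 5 (middle 40802052) and ALDH1A2, which makes retinoic acid and was the only one of the 8 at an annotated start on its strand. All 8 had a GC content of 33.4% to 49.1% and none held a GC box. No insert with a GC content below 47.7% held a GC box.

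The 8 largest falls all held GC boxes, 1 to 6 each, at a GC content of 70.3% to 80.9%, and 7 of them lay at an annotated start on the same strand. Every insert with a GC content above 68.0% held a GC box, so the boxes do not set these 8 apart from other inserts that rich in GC. ZXDC, a gene for a zinc finger transcription factor, gave 0.51 and 0.56 in the episomal and 0.0104 and 0.00784 in the lentiviral samples, a difference of -5.88 ± 0.46 (SE; adjusted p = 2.46e-06, edgeR). Its RNA reads were 883 and 1121 against 99 and 60, and its DNA reads 1312 and 1483 against 7662 and 6585. PSMG4, for a chaperone of proteasome assembly, gave 1.42 and 1.87 against 0.036 and 0.050 on 14362 and 19274 against 712 and 1018 RNA reads. LNC-LBCS opposite gave 1.03 and 0.81 against 0.049 and 0.050.

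CERS2, the gene of a ceramide synthase, had no lentiviral RNA read on 403 and 289 DNA reads, and 50 and 13 episomal RNA reads on 136 and 275 DNA reads. Against a floor of 3 reads in each lentiviral library its RNA per DNA was at least 21.2-fold lower. The episomal replicates differed widely, and with replicate 1 or 2 alone the bound was 37.7-fold or 4.75-fold. Its call (adjusted p = 0.00894, edgeR) was lost without either lentiviral replicate. The other falls were SCRIB, a scaffold of cell polarity, PCGF5, a Polycomb protein, ANPEP, an aminopeptidase known as CD13, and RAB12, a small GTPase of membrane traffic. The fall of RAB12 came with 253 and 468 episomal against 9712 and 9631 lentiviral DNA reads, and its RNA alone did not pass the test (0.31 on the log2 scale, and -3.94 in the core tables). RNF32, a RING finger gene, was among the 5 most active inserts in the episomal samples with 29.4 and 19.7, and gave 1.77 and 1.53 in the lentiviral ones.

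**Figure D4:**
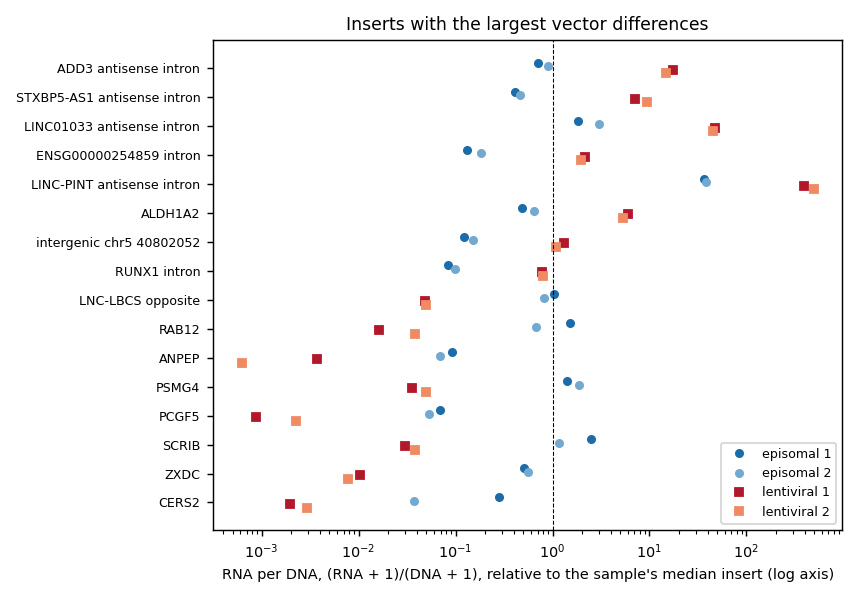
RNA per DNA of the 8 inserts with the largest rise and the 8 with the largest fall in the lentiviral vector, each sample as a point on a log axis relative to its median insert (dashed line). Episomal circles and lentiviral squares do not overlap in any row, as the rule for the choice of the inserts requires.

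GC content ran through these differences. In the lowest of the 4 groups by GC (33.4% to 50.6%) 53 of 64 inserts were higher in the lentiviral vector and 3 lower, with a median of 1.41. In the highest group (68.0% to 80.9%) 2 of 59 were higher and 54 lower, with a median of -2.48. In the episomal samples the median level was 0.65 in both replicates for the lowest group, 0.97 and 1.05 for the next, 1.69 and 1.73 for the third and 1.09 and 1.08 for the highest. In the lentiviral samples the same medians were 1.354 and 1.436, 1.65 and 1.61, 1.29 and 1.34, and 0.32 and 0.34. The 9 elements searched are read against the 45.3% of all inserts that were lower and the 40.1% that were higher. Of the inserts with a GC box 88 of 128 were lower and 26 higher, with ETS 24 of 36 and 9, and with NRF1 (GCGCATGC) 13 of 15 and 1. With CRE (TGACGTCA) 8 of 9 were lower and 0 higher, with YY1 (AAGATGGC) 6 of 8 and 2, and with an E-box 9 of 13 and 2. NFY was level, with 34 of 79 lower and 36 higher. With AP-1 (TGANTCA) 7 of 35 were lower and 19 higher, and with GATA 8 of 34 and 20. The median GC content of the inserts was 50.29% with AP-1 and 50% with GATA, 59.1% with NFY and from 62.6% to 66.9% with the others, and the part of GC in these counts was not tested.

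The DNA reads differed along the same axis in the opposite direction, and they are the denominator of RNA per DNA. Of 249 inserts 106 (42.6%) had more DNA in the lentiviral samples and 107 (43%) less, by edgeR. In the highest group by GC 55 of 61 were higher and 1 lower, and in the lowest 6 of 64 were higher and 50 lower. Across inserts the Spearman correlation of GC content was 0.72 with the DNA difference, -0.80 with that of RNA per DNA and -0.37 with that of RNA alone (247 to 249 inserts, which share libraries). RNA reads alone were higher for 99 of 249 inserts (39.8%) and lower for 102 (41%), with medians of 0.58, 0.03, -0.21 and -0.72 from the lowest to the highest group of GC. The part of the DNA difference in that of RNA per DNA was not tested.

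**Figure D5:**
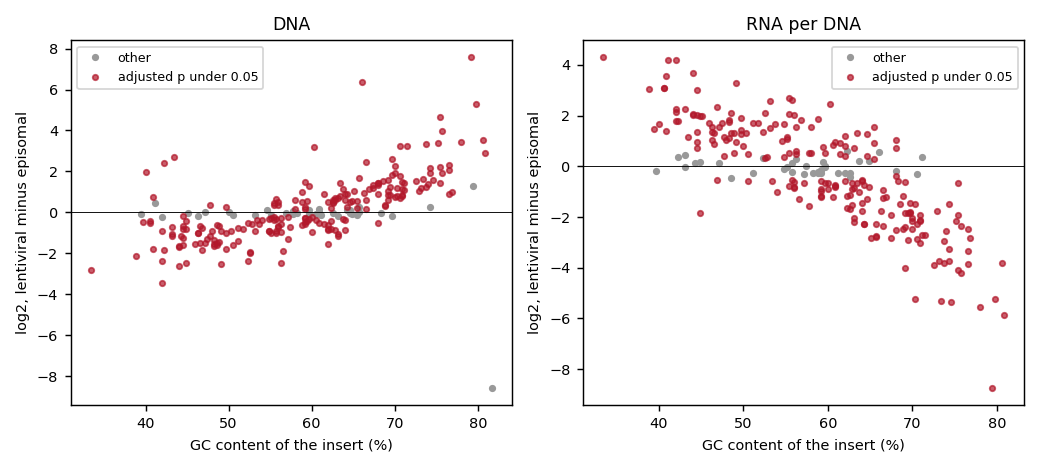
Difference between vectors (log2, lentiviral minus episomal) in DNA reads (left) and in RNA per DNA (right) against the GC content of the insert, one point per insert, with inserts at an adjusted p under 0.05 in red. DNA differences rise and RNA per DNA differences fall from left to right.

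In DNA the largest difference that passed the test was that of SNRK. SNRK, a gene of a protein kinase, had 12 and 27 episomal and 2525 and 2743 lentiviral DNA reads (7.59 ± 0.35 SE; adjusted p = 5.69e-06, edgeR), too few in the episomal samples for a test of RNA per DNA. ANKRD31, a gene with a role in meiotic recombination, had 35 and 37 against 2005 and 2115. RAB12, an intergenic insert of chromosome 6 (middle 35731961) and MLLT6 opposite followed. The largest losses were MAN1A1 antisense intron, with 28537 and 26383 against 1515 and 1955 reads, ADD3 antisense intron, SF3B3, ALDH1A2 and GRAP2 antisense intron. C17orf58 opposite had no DNA read in any of the 4 samples.

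Few inserts belong to the gene groups followed here. Of the splicing genes SF3B3, of the U2 particle, gave 0.25 and 0.23 in the episomal and 1.15 and 0.89 in the lentiviral samples and rose by 2.07 ± 0.25 (SE; adjusted p = 4.21e-05, edgeR). The rise of SF3B3 came with 1 of the largest losses of DNA given above, and its RNA alone was not higher (-0.31 on the log2 scale). LSM6, of the U6 particle, gave 1.77 and 2.17 against 1.06 and 1.07 and fell, a call that was lost without episomal replicate 2 (-0.71) and with library totals (-0.63). HNRNPA3 fell from 0.094 and 0.091 to 0.010 and 0.019. Of the respiratory chain genes NDUFC1, a complex I subunit, rose from 0.23 and 0.26 to 0.53 and 0.55, and COX17, a copper chaperone for cytochrome c oxidase, fell from 11.4 and 11.3 to 6.96 and 7.91. CDC26, a subunit of the anaphase-promoting complex, fell from 6.82 and 4.59 to 1.91 and 1.71, and PSMG4 is given above. All 7 of these inserts passed the test of RNA per DNA in some direction, as did 85.4% of all inserts. All 7 had a narrower lentiviral profile, as did 88.1% of all inserts, with 8.28 to 27.5 effective positions against 19.2 to 36.7. For NDUFC1 the call on the profile was lost without episomal replicate 1 (-0.24) or lentiviral replicate 2 (-0.24), and in the core tables (-0.01). No insert at a same-strand start belonged to the ribosomal protein, histone, immediate early, erythroid, translation factor or chaperonin genes searched.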

How the data were processed

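For each barcoded insert the deposited tables hold a count of RNA reads and a count of DNA reads, as the file headers name them, and 350 position columns. Each position value is the share of the insert's RNA reads whose 5 prime end lies there, as the authors deposited it. STAR 2.7.9a and hg38 are named in the submitters' processing notes; other steps from reads to counts are not given in the sources used here. Each of the 4 tables of long inserts belongs to 1 vector and stacks 4 blocks with no sample column. The 8 blocks of another assay were not used: all 8 held no DNA read and were identical between the vectors' tables. The replicate number of the others rests only on the order of the names in the table's title. Position shares times the RNA count lay within 0.05 of a whole number for 93.7% to 99.97% of nonzero values in the main tables and were rounded to reads.

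Counts of the 2 barcodes were summed per insert. RNA, DNA and RNA per DNA (an interaction term) were tested by quasi-likelihood in edgeR 4.0.16 with TMM scaling, for inserts with a mean count of at least 10 (for RNA per DNA also 20 DNA reads per library). Mean start, spread, main start share and pyrimidine and purine share were tested in limma 3.58.1 with a trend on depth, for inserts with at least 100 reads per sample. Benjamini-Hochberg adjustment ran over all inserts, with a threshold of 0.05, and the fits were tested on simulated data. GENCODE version 44 gave names, and inserts were placed at the offset at which starts best matched pyrimidine and purine steps. Elements were searched as fixed letters on both strands, among them CCGGAAG for ETS, CCAAT for NFY, CACGTG for the E-box and AGATAA for GATA, and they may overlap. Alternatives were RLE scaling, library totals, no filter, DESeq2 1.42.0, single barcodes, core tables, other minimums and windows, thinning, a replicate block and leaving out each replicate.

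Named inserts are, by rule, the 8 largest differences in RNA per DNA in each direction (replicates not overlapping, at least 100 DNA reads), the 5 most active per vector, the 8 most and 4 least different profiles, switched main starts (6 by value, of which 1 is not reported here), members of 10 gene groups and the 5 largest DNA differences in each direction. Inserts overlapping on the genome were also to be named, and there were none. Single inserts named outside the rule were chosen after their values were seen. The inserts, lists and rule were chosen with earlier results of these data known. The work ran in R 4.3.3 and in python 3.11.15 with matplotlib 3.10.9 and scipy 1.17.1.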

Additional observations from a re-analysis of the deposited data

How the results depend on the processing

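For RNA, DNA, RNA per DNA, mean start, spread and pyrimidine and purine share, the counts of calls in both directions together stayed within 1.5 times of those reported under every alternative run for each. By direction the counts for mean start did not, with 53 upstream and 70 downstream in the core tables, 56 upstream without lentiviral replicate 1 and 23 downstream without lentiviral replicate 2, and 5 inserts instead of 8 had a lower pyrimidine and purine share without episomal replicate 1. For main start share the counts in both directions ranged from 66 to 150 when a replicate was left out. The distance between vectors moved from 7.32 bp to 4.08 bp in the core tables, and was 23.9% when measured as total variation distance. The cause of these shifts and of the sign changes below was not tested, except that the core tables leave out starts beyond 44 bp. In the core tables the main start was also chosen anew from the starts left, so its share may be read at another base.

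Replicate numbers are shared between the vectors without a stated link, and the deviations of equal numbers correlated across inserts at 0.03 for RNA, -0.04 for DNA and no more than 0.098 for the profile measures. Within a vector, the replicate differences of RNA and DNA correlated at -0.36 in the episomal and 0.07 in the lentiviral samples. With a replicate block the calls were 185 for RNA, 213 for RNA per DNA, 209 for DNA, 85 for mean start, 212 for spread, 143 for main start share and 194 for the pyrimidine and purine share.

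Among named inserts the following values turned in sign and had passed the threshold as reported or passed it under the alternative. In the core tables the RNA difference became -3.94 for RAB12 and 0.38 for MAN1A1 antisense intron. The mean start difference became 3.97 bp for LONP1 antisense intron, 5.41 bp for ENSG00000287697 and 2.39 bp for RUNX1 intron, whose spread difference became -0.36. The main start share difference in points, read at the main start chosen anew, became 40.9 for ADNP opposite, 6.39 for RUNX1 intron and 7.09 for COX17. It became -1.56 for CHD1-DT opposite, -0.93 for STXBP5-AS1 antisense intron and -8.46 for RNF32. The episomal main starts of ADNP opposite and RUNX1 intron, at 67 and 102 bp, are not in the core tables. The pyrimidine and purine share difference became 7.84 for TRAPPC3 antisense intron, 24.7 for ADNP opposite and 39.8 for PSMG4. For single barcodes the RNA difference became -9.32 for ADNP opposite (second) and 0.19 for SCRIB (first), and the DNA difference -0.0048 for PRKCZ antisense intron, 0.17 for LSM6 and -0.32 for AFAP1L1 antisense intron (second) and 0.30 for STXBP5-AS1 antisense intron (first). With library totals the DNA difference of PRKCZ antisense intron became -0.023, and with the main position alone the main start share difference of NDUFC1 became 2.00.

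Other signs turned only among differences that passed the threshold neither as reported nor where the sign turned. When each replicate was left out in turn, these ranged as follows. The difference in RNA ran from -0.26 to 0.72 for RAB12. The difference in RNA per DNA ran from -0.50 to 0.034 for TRIM21, from -0.070 to 0.14 for TRAPPC3 antisense intron and from -0.029 to 1.71 for ANKRD31. The difference in mean start (bp) ran from -0.43 to 0.12 for TRIM21, from -5.74 to 0.68 for LONP1 antisense intron, from -2.73 to 5.58 for LINC01033 antisense intron, from -0.012 to 5.25 for CHD1-DT opposite and from -0.44 to 1.11 for intergenic chr6 35731961. The difference in spread ran from -0.034 to 0.75 for RUNX1 intron and from -0.081 to 0.053 for VPS28 opposite. The difference in main start share (points) ran from -5.17 to 2.10 for ALDH1A2, from -6.85 to 16.6 for SF3B3, from -3.39 to 7.96 for MLLT6 opposite and from -1.45 to 1.95 for GRAP2 antisense intron. The difference in pyrimidine and purine share (points) ran from -3.54 to 11.7 for MLLT6 opposite, from -0.16 to 3.999 for LNC-LBCS opposite, from -6.56 to 1.90 for PSMG4 and from -8.94 to 0.69 for SCRIB. Under other alternatives single values turned likewise. With the first barcode the difference in RNA was 0.13 for GRAP2 antisense intron. With the first barcode the difference in RNA per DNA was 0.060 for SYNJ2 intron. With the second barcode the difference in RNA per DNA was 0.12 for TRIM21. With the second barcode the difference in DNA was 0.024 for NDUFC1. With library totals the difference in RNA per DNA was 0.062 for SYNJ2 intron. In the core tables the difference in RNA per DNA was 0.18 for SYNJ2 intron. In the core tables the difference in mean start (bp) was 0.34 for ADK, 0.12 for TRIM21, 0.71 for ELF1, 2.37 for MLLT6 opposite, -3.37 for PSMG4 and -2.17 for RNF32. In the core tables the difference in main start share (points), at the main start chosen anew, was -3.26 for MLLT6 opposite and -4.53 for GRAP2 antisense intron. It was 0.49 for MAN1A1 antisense intron and 6.56 for LNC-LBCS opposite. In the core tables the difference in pyrimidine and purine share (points) was -0.27 for LNC-LBCS opposite. With the main position alone the difference in main start share (points) was 0.27 for ALDH1A2 and -3.04 for MLLT6 opposite.

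With 2 replicates per vector each spread rests on few samples. The 15 of 250 inserts with under 100 RNA reads in a sample, all with a GC content of 65.7% to 81.7%, have no profile test; ZXDC, CERS2, PCGF5 and ANPEP are among them.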
